A study of Mus musculus with 2 samples.

Results

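Nr4a1, Nr4a2, Nr4a3, Egr1, Egr2, Egr3 and Nab2 are genes that thymocytes switch on when their T cell receptor (TCR) is engaged, and their transcripts were followed here in cells from mouse thymus that had been sorted by gates for an early and a late stage of invariant natural killer T (iNKT) cells. The 7 genes were taken by name out of the 32285 genes counted, and all 7 passed the minimum level of 10 CPM (UMIs of a gene per 1000000 UMIs of the cells summed, where a UMI, or unique molecular identifier, marks 1 captured molecule) in at least 1 group of cells that 10783 genes passed. The material was thymus of C57BL/6 mice that were either Ctrl or T-KO, the latter lacking Kidins220 in the T lineage through a floxed allele and Cre under the Lck promoter (pLckCre). From pools of 4 thymi per genotype, with the sort run 2 times in parallel, cells were gated as stage 0 (TCRβ+, CD1d tetramer+, CD24+, NK1.1-) or stage 3 (TCRβ+, CD1d tetramer+, NK1.1+, CD24-, CD44+). The resulting 8 populations were tagged with hashtag antibodies and run as 1 droplet library, so that each transcript molecule was counted once as a UMI read from the 5′ end.

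No source used here pairs a hashtag with a population, so the 8 hashtags in use are named by their numbers in the count matrix, 11 to 18. No label gives a stage or genotype to any value below. A comparison of T-KO with Ctrl was therefore not made. Of 16179 barcodes, 10007 were kept, with at least 1000 genes, at most 5% mitochondrial UMIs, and at least 80% of at least 10 hashtag UMIs on a single hashtag. Each hashtag held between 577 and 2162 cells and between 2283162 and 14601545 UMIs. Odd-numbered hashtags stood apart from even-numbered ones: Klrb1c, which encodes NK1.1, was at 4.78 to 6.57 CPM in the odd and at 328 to 444 CPM in the even hashtags, while Cd24a was at 313 to 365 CPM in the odd and 23.3 to 34.2 CPM in the even ones. Cells of odd hashtags were also deeper, with medians of 6500 to 8068 UMIs against 3258 to 3804. Hashtags that belong to no known group were not treated as replicates, so no test between them was run, and differences are given as values and ranges. Intervals are exact Poisson intervals at 95%, and where a gene had 0 UMIs the level or share that a count of 3 would give is printed as the limit; both cover counting error only. In these sums, fewer cells making a transcript and less transcript per cell cannot be told apart.

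TCR engagement raises calcium and activates ERK, and both routes lead within minutes to transcription of immediate-early genes without new protein synthesis. The Nr4a genes encode orphan nuclear receptors: Nr4a1 (Nur77) is widely used as a readout of TCR signal strength and takes part in the deletion of self-reactive thymocytes, and Nr4a2 and Nr4a3 are its close relatives. Egr1, Egr2 and Egr3 encode zinc finger transcription factors downstream of ERK and calcineurin, of which Egr2 is known to induce PLZF (Zbtb16) in developing iNKT cells. Nab2 encodes a corepressor that binds Egr proteins and is itself an Egr target.

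The promoters are shown first. Whether their motifs go with the levels described below was not tested. In GRCm38.p6 with GENCODE M21, Nr4a1 lies at chr15:101254269-101274795 on the plus strand, Nr4a2 at chr2:57106830-57124003 on the minus strand, Nr4a3 at chr4:48045153-48086447 on the plus strand, Egr2 at chr10:67535475-67542188 on the plus strand, Egr3 at chr14:70077203-70082614 on the plus strand, and Nab2 at chr10:127660918-127668568 on the minus strand. Windows from RefSeq, 300 bases across an annotated start, were at hand for Nr4a1 (chr15:101266596-101266895), Nr4a2 (chr2:57123954-57124253), Nr4a3 (chr4:48045055-48045354), Egr2 (chr10:67537619-67537918, printed because it held the most matches below, which numbered 0 to 2 over 5 alternative starts) and Nab2 (chr10:127666654-127666953). They read as follows from 5′ to 3′ on the gene's strand, with capitals on every TGACG, the half-site of the cAMP response element that CREB family factors bind, and on its reverse complement CGTCA.
Nr4a1: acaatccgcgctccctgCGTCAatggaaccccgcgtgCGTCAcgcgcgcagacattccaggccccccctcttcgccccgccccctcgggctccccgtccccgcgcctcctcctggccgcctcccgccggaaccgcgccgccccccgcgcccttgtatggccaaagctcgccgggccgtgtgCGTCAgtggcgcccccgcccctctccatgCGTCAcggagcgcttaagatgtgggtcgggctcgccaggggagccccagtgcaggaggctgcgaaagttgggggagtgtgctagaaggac
Nr4a2: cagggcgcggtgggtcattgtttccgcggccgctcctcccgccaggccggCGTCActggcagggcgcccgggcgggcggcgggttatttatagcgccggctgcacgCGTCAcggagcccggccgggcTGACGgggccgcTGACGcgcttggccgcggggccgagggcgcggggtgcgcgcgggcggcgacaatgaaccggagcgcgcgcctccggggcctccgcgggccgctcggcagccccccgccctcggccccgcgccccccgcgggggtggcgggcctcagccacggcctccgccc
Nr4a3: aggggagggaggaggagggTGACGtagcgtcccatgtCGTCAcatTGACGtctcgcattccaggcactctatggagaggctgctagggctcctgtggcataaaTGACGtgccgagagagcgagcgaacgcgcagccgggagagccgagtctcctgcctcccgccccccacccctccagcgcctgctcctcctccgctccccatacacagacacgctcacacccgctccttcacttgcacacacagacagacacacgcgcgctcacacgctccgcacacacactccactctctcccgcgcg
Egr2: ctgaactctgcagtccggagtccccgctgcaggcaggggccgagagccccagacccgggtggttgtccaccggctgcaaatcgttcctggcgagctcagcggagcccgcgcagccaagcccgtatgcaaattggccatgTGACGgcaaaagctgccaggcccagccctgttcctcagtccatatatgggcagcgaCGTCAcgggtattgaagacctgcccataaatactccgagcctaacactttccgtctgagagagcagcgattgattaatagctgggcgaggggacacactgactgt
Nab2: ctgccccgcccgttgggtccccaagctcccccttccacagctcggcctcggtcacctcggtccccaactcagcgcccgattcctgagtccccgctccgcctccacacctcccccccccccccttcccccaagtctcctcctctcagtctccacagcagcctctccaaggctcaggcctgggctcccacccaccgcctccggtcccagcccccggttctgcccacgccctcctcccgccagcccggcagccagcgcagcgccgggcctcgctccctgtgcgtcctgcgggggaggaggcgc
Each of the 3 Nr4a windows held 4 matches to TGACG on either strand, a number reached by 76 of 32851 windows of this length, or 0.231%. The matches lay before the RefSeq start of the window in all 3, by 233 to 40 bases in Nr4a1, 200 to 111 in Nr4a2, and 231 to 147 in Nr4a3. This start is also the 5′ end of the GENCODE gene in Nr4a2 but lies 12577 bases inside the gene in Nr4a1 and 152 bases inside it in Nr4a3, so that 4 of the Nr4a1 matches and 1 of the Nr4a3 matches are within the GENCODE gene. The Egr2 window held 2 matches and 1 CArG box, the site of serum response factor, against 5.01% of windows with at least 2 TGACG matches and 1.63% with a CArG box. The Nab2 window held none of the 4 motifs searched, which also included the full TGACGTCA element, present in 1.79% of windows, and the Egr site GCGNGGGCG, present in 5.55% of them and found once each for Nr4a1 and Nr4a2. Matches were counted on both strands.

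Over the hashtags as a whole, the Nr4a transcripts were higher in the odd-numbered ones. Nr4a1 was at 60.7, 103, 114 and 141 CPM in hashtags 11, 13, 15 and 17, and at 9.75, 15.9, 10.1 and 30.3 CPM in hashtags 12, 14, 16 and 18. The lowest odd value was thus above the highest even value, and the log2 ratio of the 2 medians was 2.36, or 5.14-fold, after 10 CPM were added to both sides, as for all log2 ratios here, which understates the difference for low levels. Nr4a2 was at 17.8, 46.6, 33.9 and 47.2 CPM in the odd and at 9.58, 15.2, 7.45 and 11.1 CPM in the even hashtags. Again the ranges were apart, with a log2 ratio of 1.30. Nr4a3 was at 13.4, 20.3, 17.5 and 26.9 CPM against 11.6, 9.72, 11.4 and 11.8 CPM, a log2 ratio of 0.43 between ranges that nearly touched, and the intervals of hashtag 11 (11.2 to 15.95 CPM) and hashtag 12 overlapped. Hashtag 11 was the lowest odd hashtag for each Nr4a gene. Within the even hashtags, 18 was the highest for Nr4a1, with an interval of 25.6 to 35.6 CPM that lay above those of the other three.

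The Egr genes and Nab2 followed other patterns. Egr1 was at 112, 115, 81.2 and 108 CPM in hashtags 11, 13, 15 and 17 and at 77.8, 94.8, 104 and 105 CPM in hashtags 12, 14, 16 and 18, so that the ranges overlapped. Egr2 was at 13.1, 15.9, 15.03 and 16.1 CPM in the odd and 10.7, 13.3, 14.02 and 17.1 CPM in the even hashtags, again overlapping. Neither Egr1 (log2 ratio 0.13) nor Egr2 (0.11) differed by more than the spread over hashtags. Egr3, the sparsest of the 7 with 339 UMIs in all 10007 cells, ran the other way, with 2.05, 4.79, 2.96 and 4.07 CPM in the odd and 8.59, 7.53, 13.1 and 13.2 CPM in the even hashtags. Nab2 was at 40.03, 46.0, 49.4 and 50.4 CPM in the odd and at 62.3, 63.6, 87.6 and 77.3 CPM in the even hashtags. For both genes every even hashtag was above every odd one, with log2 ratios of -0.63 for Egr3 and -0.48 for Nab2.

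In all, 3 of the 7 genes were higher in odd hashtags without overlap and 2 were lower. With a hashtag share of at least 95% the ranges of Nr4a2 overlapped, which left 2 genes higher. Of all 10783 genes, 38.2% were higher and 23.1% lower by the same rule, so these counts were near the background. The direction for Nab2 depended on depth. Among cells of 3000 to 8000 UMIs, a range chosen after the depths were seen, Nab2 was at 57.1, 81.6, 122 and 97.6 CPM in the odd and 56.6, 59.6, 90.3 and 71.6 CPM in the even hashtags, a log2 ratio of 0.40 with overlapping ranges. The ranges of Egr3 also overlapped in these cells, at 5.57 to 8.39 CPM in the odd and 7.66 to 12.5 CPM in the even hashtags. Egr1 was at 173 to 227 CPM in the odd hashtags against 75.0 to 106 CPM in the even ones, and Egr2 at 21.4 to 32.4 against 9.98 to 14.4 CPM. Thus 5 of the 7 genes were higher and 0 lower in odd hashtags in these cells, where 39.4% of all genes were higher and 11.7% lower.

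**Figure D1:**
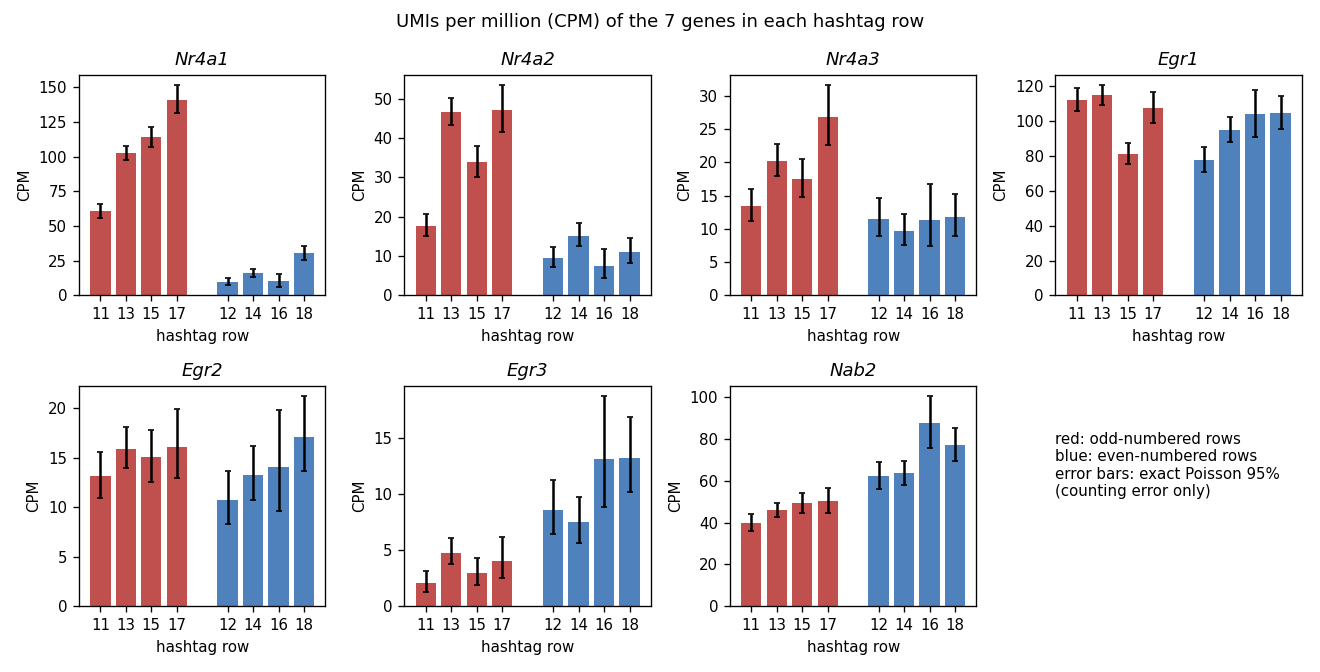
Level of each gene (CPM, linear axes from 0) in every hashtag, odd-numbered hashtags in red and even-numbered ones in blue, with exact Poisson 95% intervals. Nr4a1 reached 60.7 to 141 CPM in the red bars and 9.75 to 30.3 CPM in the blue ones, Egr1 and Egr2 overlapped between the colours, and Egr3 and Nab2 were higher in the blue bars.

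The odd hashtags held several kinds of cells, and the levels above are averages over them. The methods of the study note a weak tetramer stain in this sort and the presence of B, myeloid and immature thymic cells. Their cells were split by the first match among at least 2 UMIs of Cd79a (B cell receptor), at least 5 UMIs of Cst3 (dendritic and other myeloid cells), at least 1 UMI of Rag1 (recombinase of immature thymocytes) and at least 2 UMIs of Ikzf2 (the transcription factor Helios), and the remainder is called the rest group. The Ikzf2 group had 161, 473, 244 and 228 cells in hashtags 11, 13, 15 and 17, the rest group 301, 328, 188 and 126, and the Rag1 group 72, 149, 122 and 75. In the even hashtags the same genes marked only 3.10% to 6.59% of cells, which were left in. In the Ikzf2 groups Pdcd1 (PD-1) was at 347 to 433 CPM, whereas Trav11, the gene segment of the invariant receptor, was at 0 to 1.70 CPM, against 39.5 to 56.5 CPM in the even hashtags. Zbtb16 was at 3.41 to 17.8 CPM in the Ikzf2 groups and at 64.7 to 74.7 CPM in the even hashtags. Thus one defining iNKT transcript was at or near 0 in Ikzf2 group cells, which had been gated with the CD1d tetramer, and the other was below every even hashtag. Foxp3, which marks regulatory T cells, was at 0.848 to 11.7 CPM there. Summed over 8 markers of stage 0 iNKT cells, transcripts amounted to 2316 to 2538 CPM in the Ikzf2 groups. The sums were 1022 to 1780 CPM in the rest groups and 328 to 393 CPM in the even hashtags. These 8 include Trav11, Zbtb16, Egr2 and also Ikzf2, which chose the cells and was at 843 to 884 CPM in the Ikzf2 groups. The order of the sums was thus partly set by that choice and is not read as a result. In hashtag 11 the Ikzf2 and rest groups had 2316 and 1780 CPM, a gap smaller than the Ikzf2 level. Summed over 6 markers, B cell transcripts amounted to 21.4 to 31.4 CPM in the Ikzf2 groups, with 1 of the 6 at 10 CPM or more. Myeloid transcripts, summed over 7 markers, amounted to 334 to 366 CPM there and 396 to 843 CPM in the rest groups, and those of CD4+CD8+ and earlier thymocytes, over 8 markers, to 439 to 488 and 909 to 1112 CPM. These lists include Cd79a, Cst3 and Rag1. Cells with these genes were taken out before the Ikzf2 and rest groups were formed, so low sums were partly set by the split. The part of B, myeloid and immature thymic cells in the results was not tested.

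Nr4a transcripts were concentrated in the Ikzf2 groups. Nr4a1 was at 244, 303, 348 and 355 CPM in the Ikzf2 groups of hashtags 11, 13, 15 and 17, against 96.1, 65.6, 73.9 and 79.1 CPM in the rest groups and 21.5, 8.08, 19.2 and 6.63 CPM in the Rag1 groups. The order Ikzf2, rest, Rag1 held in each of the 4 hashtags, with no overlap of intervals between the Ikzf2 and the rest group. Nr4a2 was at 61.9, 146, 109 and 103 CPM in the Ikzf2 groups and at 16.02 to 19.6 CPM in the rest groups. Nr4a3 was at 37.3, 55.9, 52.6 and 57.9 CPM in the Ikzf2 groups and at 4.58 to 7.64 CPM in the rest groups, below its level in the even hashtags. Within the Ikzf2 groups hashtag 11 was the lowest for all 3 genes, and for Nr4a1 its interval, 217 to 274 CPM, did not reach those of the other three. Hashtags 15 and 17 did not differ beyond counting error for Nr4a1 (intervals of 323 to 375 and 328 to 384 CPM).

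In the groups marked by B cell and myeloid genes, Nr4a1 was at 20.0 to 43.7 CPM (Cd79a) and 22.7 to 46.2 CPM (Cst3), below the rest group of the same hashtag. Nr4a3 did not follow this order, since in each hashtag the Cst3 group, at 8.55 to 27.8 CPM, was above the rest group, with intervals apart in hashtag 17 and overlapping in the other three. In hashtag 11 the Cst3 group, with more cells, held 58 Nr4a3 UMIs and the Ikzf2 group 44. Nr4a2 was at 7.96 to 30.4 CPM in the Cst3 groups, a range that spans that of the rest groups. Egr1 behaved differently, since its highest value was that of the Cd79a group of hashtag 13, 263 CPM, and the Cd79a groups of the other odd hashtags were at 122 to 168 CPM. The Egr1 level of the Ikzf2 groups, 154, 138, 156 and 160 CPM, lay within the range of the Cd79a groups. In the Cst3 groups Egr1 was at 55.3 to 93.0 CPM, and in the Rag1 groups at 9.03 to 15.8 CPM, the lowest of the 5 groups in each hashtag.

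Over cells of all depths, the rest group of hashtag 11 stood apart from the other rest groups for Egr1, Egr2 and Nab2. Egr1 was there at 194 CPM, above the 154 CPM of the Ikzf2 group of the same hashtag, while the rest groups of hashtags 13, 15 and 17 were at 62.8, 73.9 and 104 CPM. Egr2 was at 28.0 CPM in that rest group against 4.21, 7.19 and 9.01 CPM in the others, and at 37.3, 36.6, 40.9 and 30.7 CPM in the Ikzf2 groups. Nab2 was at 96.1 CPM in that rest group against 30.5, 54.9 and 40.1 CPM in the others, and at 110, 126, 127 and 99.9 CPM in the Ikzf2 groups. The same rest group had the fewest UMIs per cell of any group, a median of 2859, and the highest Cd5 of the rest groups, 251 CPM against 104 to 176 CPM. Whether depth or a different mix of cells goes with its Egr levels was not tested.

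Egr2 was close to absent from the Rag1 groups, with 0, 1, 3 and 0 UMIs in hashtags 11, 13, 15 and 17, against 44, 131, 84 and 54 UMIs in the Ikzf2 groups. Set against the level that 3 UMIs would give in each Rag1 group, Egr2 was at least 8.09-fold higher in the Ikzf2 group of hashtag 11 and at least 10.8-fold higher in that of hashtag 17. Nab2 was at 7.68, 6.18, 10.2 and 8.53 CPM in the Rag1 groups, between 11.7- and 20.4-fold below the Ikzf2 groups of the same hashtags. Egr3 stayed low in all groups of odd hashtags, at 1.70, 10.1, 7.80 and 7.38 CPM in the Ikzf2 groups, which rest on 2, 36, 16 and 13 UMIs. In the rest group of hashtag 13 Egr3 had 0 UMIs, which allows a level of up to 1.05 CPM, that of 3 UMIs.

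**Figure D2:**
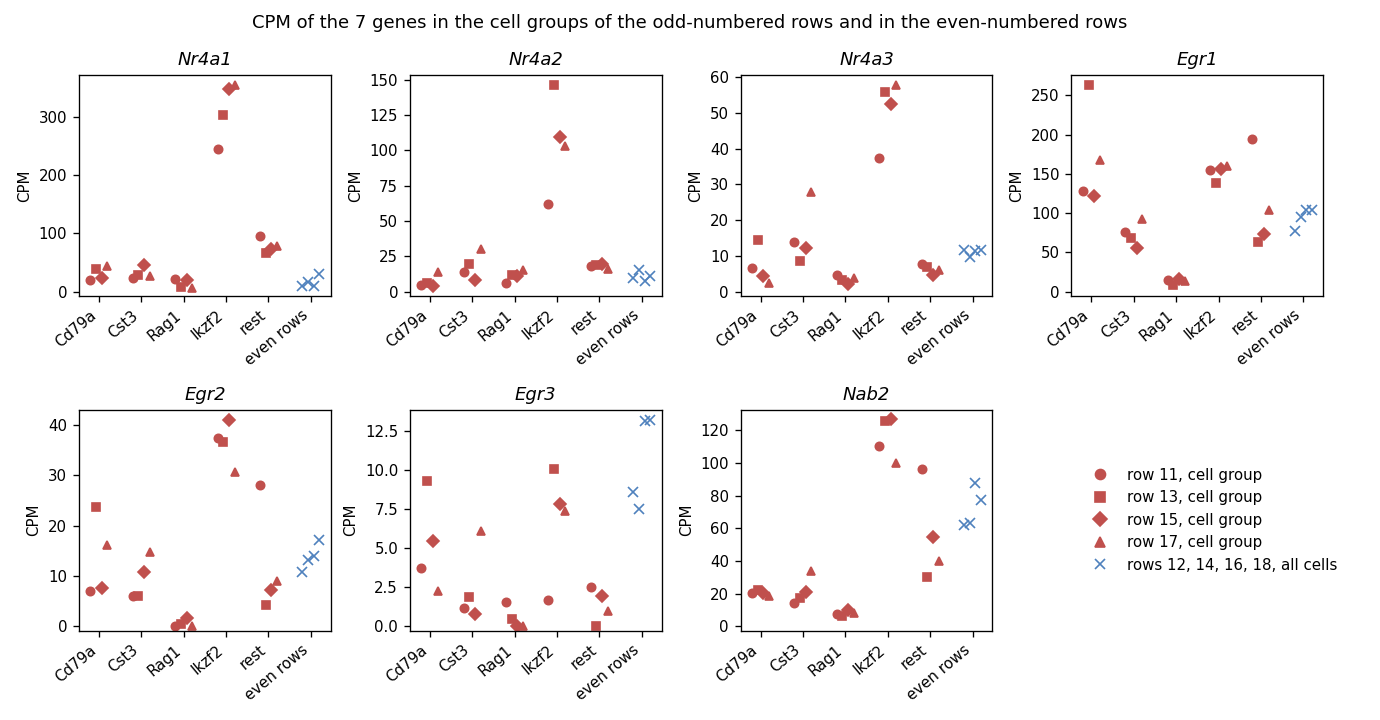
Level of each gene (CPM, linear axes) in the 5 cell groups of each odd-numbered hashtag (red, 1 symbol per hashtag) and in all cells of each even-numbered hashtag (blue crosses). The Nr4a genes were highest in the 4 Ikzf2 groups, and Egr1 was as high in Cd79a groups (122 to 263 CPM) as in Ikzf2 groups (138 to 160 CPM). Over cells of all depths, the circle of hashtag 11 stands above the other rest groups for Egr1, Egr2 and Nab2.

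Compared within each hashtag, the Ikzf2 group exceeded the rest group by at least 2-fold in all 4 hashtags for Nr4a1, Nr4a2 and Nr4a3, 3 of the 7 genes, where 0.594% of all genes were higher by this rule. The median log2 ratio over hashtags was 2.04 for Nr4a1 (range 1.26 to 2.10), 2.07 for Nr4a2 (1.34 to 2.45) and 2.02 for Nr4a3 (1.42 to 2.10), and hashtag 11 gave the lowest value for each. With the group taken from cells of at least 1 Ikzf2 UMI, Nr4a2 no longer passed in every hashtag, which left 2 genes. Egr2 had a median of 1.33 (0.32 to 1.71), Nab2 of 1.10 (0.18 to 1.75), Egr1 of 0.78 (-0.31 to 1.02) and Egr3 of 0.62 (-0.10 to 1.00). Without hashtag 11, Egr2 and Nab2 also passed 2-fold in every hashtag, for 5 of the 7 genes, where 0.853% of all genes passed over the 3 hashtags left. None of the 7 was lower, as against 1 gene, or 0.00927%, of all genes. In cells of 3000 to 8000 UMIs the 3 Nr4a genes again passed 2-fold in every hashtag, where 0.631% of all genes did, but the median log2 ratio was smaller, at 1.36 for Nr4a1, 0.32 for Nab2 and 0.14 for Egr1.

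Against the Rag1 groups, 6 of the 7 genes were at least 2-fold higher in every hashtag and 0 were lower, where 2.58% and 0.213% of all genes were. Nr4a1 had the largest median log2 ratio of the 7, 3.87, followed by Nab2 with 2.76, Egr1 with 2.75, Nr4a2 with 2.33, Nr4a3 with 2.30 and Egr2 with 2.14. Egr3, at 0.81, did not reach 2-fold in every hashtag. Cells of the Rag1 groups were deep in hashtags 13, 15 and 17, with medians of 14409 to 15274 UMIs, but not in hashtag 11, where the median was 3684.5 UMIs. In cells of 3000 to 8000 UMIs the Rag1 groups of hashtags 11 and 17 had 13 and 14 cells, fewer than the minimum of 20. In the 2 hashtags left, 13 and 15, all 7 genes passed 2-fold, with 3.41% of all genes higher and 4.64% lower. In hashtag 11 Egr3 was at 5.99 CPM in the Ikzf2 and 15.6 CPM in the Rag1 group in these cells. Over cells of all depths these groups held 2 and 1 Egr3 UMIs, so no direction is read from them.

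Against the even hashtags, in a comparison added after the values were seen, the Ikzf2 groups were higher without overlap for 6 of the 7 genes, where 40.9% of all genes were higher and 19.9% lower. Log2 ratios were 3.87 for Nr4a1, 2.51 for Nr4a2, 1.58 for Nr4a3, 0.99 for Egr2, 0.67 for Nab2 and 0.60 for Egr1. Egr3 overlapped, at -0.25. Nr4a1 was above 99.96% of all genes in this ratio, and Egr1 above 80.01%. The 2 relatives that were not among the 7 genes went apart: Egr4 was at 4.24 to 15.9 CPM in the Ikzf2 groups and at 0 to 0.496 CPM in the even hashtags, while Nab1, the paralog of Nab2, was at 42.2 to 47.3 CPM in the Ikzf2 groups and 117 to 136 CPM in the even hashtags.

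Some other genes of the TCR response were higher beside the Nr4a genes. A list of 38 TCR-induced genes that leaves out the 7 includes Ikzf2, which chose the cells and is not counted here. Of the 37 others, 5 were at least 2-fold higher in the Ikzf2 than in the rest group of every hashtag and 0 were lower, where 0.594% and 0.00927% of all genes were. They were Tnfrsf9 (the costimulatory receptor 4-1BB; median log2 ratio 3.01), Pdcd1 (2.70), Tagap (1.82), Nfatc1 (a calcineurin target; 1.62) and Cd200 (1.55). The median over the 37 was 0.49 and that over all genes 0.01. Tnfrsf9 was at 155, 186, 183 and 179 CPM in the Ikzf2 groups of hashtags 11, 13, 15 and 17 and at 13.4, 11.9, 6.54 and 16.02 CPM in the rest groups. Of a list of 24 immediate-early genes, including Fos, Jun and heat shock genes, 0 were higher and 0 lower, which is near the share over all genes, with a median of -0.08. Fos was at 130, 184, 70.7 and 166 CPM in the Ikzf2 groups and at 198, 181, 92.9 and 168 CPM in the rest groups. Both lists were chosen with results of these data known.

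Over the Rag1 groups, 17 of the 37 TCR-induced genes and 5 of the 24 immediate-early genes were higher in every hashtag and 0 of either list lower, where 2.58% of all genes were higher and 0.213% lower. Medians were 1.08 and 0.34 against 0.07 for all genes. Over the even hashtags, 15 of the 37 were higher and 13 lower (median 0.23), while 0 of the 24 were higher and 17 lower (median -1.31). Of all genes 40.9% were higher and 19.9% lower there (median 0.16), so the share of TCR-induced genes called higher was near the background. Among the TCR-induced genes that were lower in the Ikzf2 groups than in the even hashtags were Icos and Cd40lg, with log2 ratios of -2.33 and -2.65, and Cd5 overlapped at 0.08. Over whole hashtags, odd against even, 15 of the 37 were higher and 17 lower, and 0 of the 24 were higher and 12 lower, where 38.2% of all genes were higher and 23.1% lower.

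**Figure D3:**
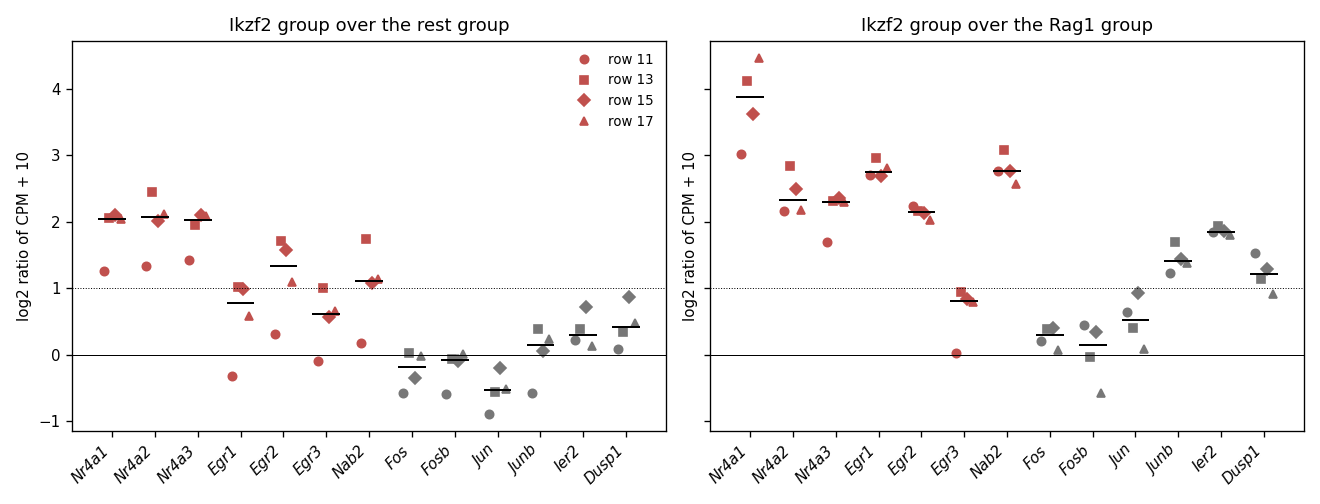
Log2 ratio of CPM + 10 of the Ikzf2 group over the rest group (left) and over the Rag1 group (right) of the same hashtag, 1 symbol per odd-numbered hashtag, for the 7 genes (red) and for 6 immediate-early genes (grey); the black line is the median and the dotted line marks 2-fold. The 3 Nr4a genes lie above 2-fold in every hashtag on both sides, while Fos, Fosb and Jun lie near or below 0 on the left.

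The make-up of each family also differed between cells. Each molecule gave at most 1 UMI, so shares within a family are shares of molecules caught at the 5′ end. Free RNA in droplets was not removed, and its part in groups with low levels, such as Nr4a in the even hashtags, was not tested. Nr4a1 made up 65.1% of the 4171 Nr4a UMIs of the Ikzf2 groups (exact binomial 95% interval 63.6% to 66.5%), 75.4% of 703 in the rest groups (71.9% to 78.6% by hashtag) and 42.6% of 809 in the even hashtags. The even hashtags differed among themselves, with 31.6%, 38.9%, 34.8% and 57.0% in hashtags 12, 14, 16 and 18, so that hashtag 18 raised the pooled share. Nr4a3 accounted for 10.9% in the Ikzf2 groups, 6.40% in the rest groups and 27.7% in the even hashtags. By hashtag its share was 37.4%, 23.8%, 39.4% and 22.1% in the even ones, and in hashtags 12 and 16 it was above that of Nr4a1. The Nr4a1 share of the single Ikzf2 groups, 71.1%, 60.0%, 68.3% and 68.8% in hashtags 11, 13, 15 and 17, was lowest in hashtag 13, where Nr4a2 made up 29.0%. Each was above each even hashtag, but the intervals of hashtags 13 and 18 overlapped. Among Egr UMIs, Egr2 held 18.9% of 1659 in the Ikzf2 groups (17.01% to 20.8%), 11.6% of 2386 in the even hashtags, 9.68% of 785 in the rest groups, and 7.17% of 1367 in the Cd79a groups. The Egr2 share of the single Ikzf2 groups was 19.3%, 19.8%, 20.0% and 15.5%, against 10.7% to 12.7% in the even hashtags and 6.28% to 12.5% in the rest groups. Egr3 held 8.42% in the even hashtags and 4.04% in the Ikzf2 groups.

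**Figure D4:**
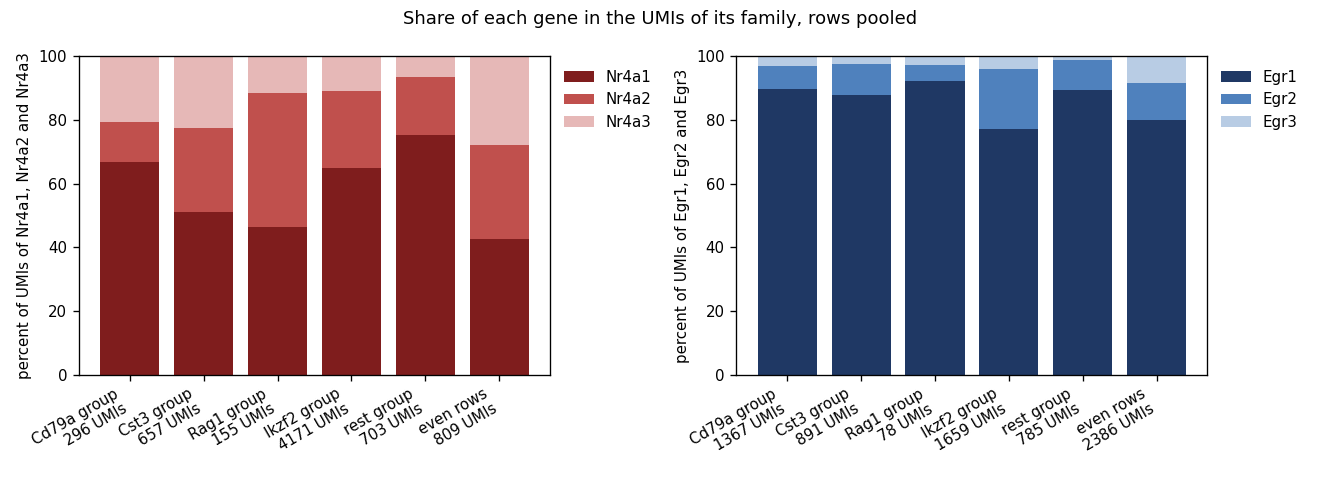
Share (percent, stacked to 100) of each gene in the UMIs of Nr4a1, Nr4a2 and Nr4a3 (left) and of Egr1, Egr2 and Egr3 (right), with hashtags pooled and the UMIs behind each bar under it. Nr4a1 takes 65.1% in the Ikzf2 group and 42.6% in even-numbered hashtags, where the Nr4a3 share is larger, and Egr2 takes its largest share, 18.9%, in the Ikzf2 group.

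Nr4a1 was spread unevenly over the cells of the Ikzf2 groups. Between 50.4% and 63.4% of cells had no Nr4a1 UMI, the highest cell of each hashtag had 33 to 37 UMIs, and the 17, 48, 25 and 23 cells with the most UMIs, 10% of cells, held 74.3%, 62.4%, 67.1% and 53.3% of them in hashtags 11, 13, 15 and 17. Nab2 was more even, with 47.7% to 53.4% in its top 10% of cells. To compare cells at a common depth, each was thinned to 2000 UMIs and shallower cells were left out, 8 to 26 per Ikzf2 group, 11 to 60 per rest group, 1 to 21 per Rag1 group and 68 to 195 per even hashtag. The most of a group, 21 of 72 cells, were lost from the Rag1 group of hashtag 11. A Nr4a1 UMI was then found in 22.0%, 30.0%, 30.5% and 38.2% of Ikzf2 group cells, in 8.70% to 9.96% of rest cells and in 1.78%, 2.49%, 1.96% and 5.07% of cells of hashtags 12, 14, 16 and 18. In the Rag1 groups it was found in 9.80%, 0%, 2.56% and 2.74% of cells, where the 0 of 148 cells in hashtag 13 allows a share of up to 2.03%, that of 3 cells. Free RNA in droplets was not removed, so low shares are not by themselves read as expression. This holds for the Rag1 groups and the even hashtags. It also holds for the rest groups, which lay near the 9.80% of the Rag1 group of hashtag 11. How much of these shares free RNA gives was not tested. Before thinning, the cells kept had median depths of 5089 to 6201.5 UMIs in the Ikzf2 groups, 9896 to 15601 in the Rag1 groups and 3365 to 3935 in the even hashtags.

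Egr2 UMIs were in 8.00%, 7.61%, 6.78% and 5.91% of thinned Ikzf2 group cells and in 2.15% to 3.14% of those of even hashtags. In the rest group of hashtag 11 the share was 7.47%, against 1.97% to 2.61% in the other rest groups. For Nab2 it was 22.7%, 24.2%, 20.8% and 20.0% in the Ikzf2 groups and 11.4% to 15.9% in the even hashtags.

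For most pairs of the 7 genes, but not all, a UMI of one was more frequent in cells with a UMI of the other. At the common depth, 16 of the 21 pairs had the higher share in cells with the other gene in every Ikzf2 group that could be compared, and 5 did not. No such count was made for pairs of other genes, so it is not read as particular to these genes. The exceptions were Nr4a2 with Nab2, Nr4a3 with Egr2, and Egr3 with Nr4a2, Nr4a3 and Nab2. In hashtag 17, for example, Nr4a2 was in 18.2% of cells with a Nab2 UMI and in 20.5% of those without, and no Ikzf2 group cell of hashtag 11 kept an Egr3 UMI after thinning. Nr4a1 was found in 70.0%, 63.0%, 69.6% and 85.7% of the Ikzf2 group cells with a Nr4a3 UMI, and in 18.6%, 26.2%, 26.3% and 33.2% of those without, in hashtags 11, 13, 15 and 17. With Egr2 the shares were 66.7%, 73.5%, 56.3% and 46.2% against 18.1%, 26.4%, 28.6% and 37.7%, so the gap was smallest in hashtag 17, where 13 cells had an Egr2 UMI. With Egr1 they were 46.7%, 52.9%, 67.3% and 61.7% against 15.8%, 24.6%, 20.9% and 31.8%. These 3 pairs, chosen as examples after the shares were seen, had 1 direction in all 4 hashtags.

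Depth moved with the level of each of the 7 genes inside the Ikzf2 groups. How many of all genes moved in the same way was not counted, so this is not read as particular to the 7 genes. Nr4a1 was at 551 to 1013 CPM in cells under 4000 UMIs and at 148 to 213 CPM in cells of at least 8000 UMIs, and each of the 7 genes was higher in the shallower cells in 4 of 4 hashtags. Median log2 ratios of the shallow over the deep cells were 1.93 for Nr4a1, 1.75 for Nr4a2, 2.32 for Nr4a3, 0.93 for Egr1, 0.89 for Egr2, 0.79 for Egr3 and 1.10 for Nab2. Fos moved the same way, with 170 to 439 against 56.1 to 113 CPM. In the even hashtags, cells under 2500 UMIs exceeded those of at least 5000 UMIs in 4 of 4 hashtags for Egr1, Egr2, Nr4a3 and Nab2, but in 2 of 4 for Nr4a1, at 5.04 to 50.5 against 11.2 to 50.2 CPM.

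**Figure D5:**
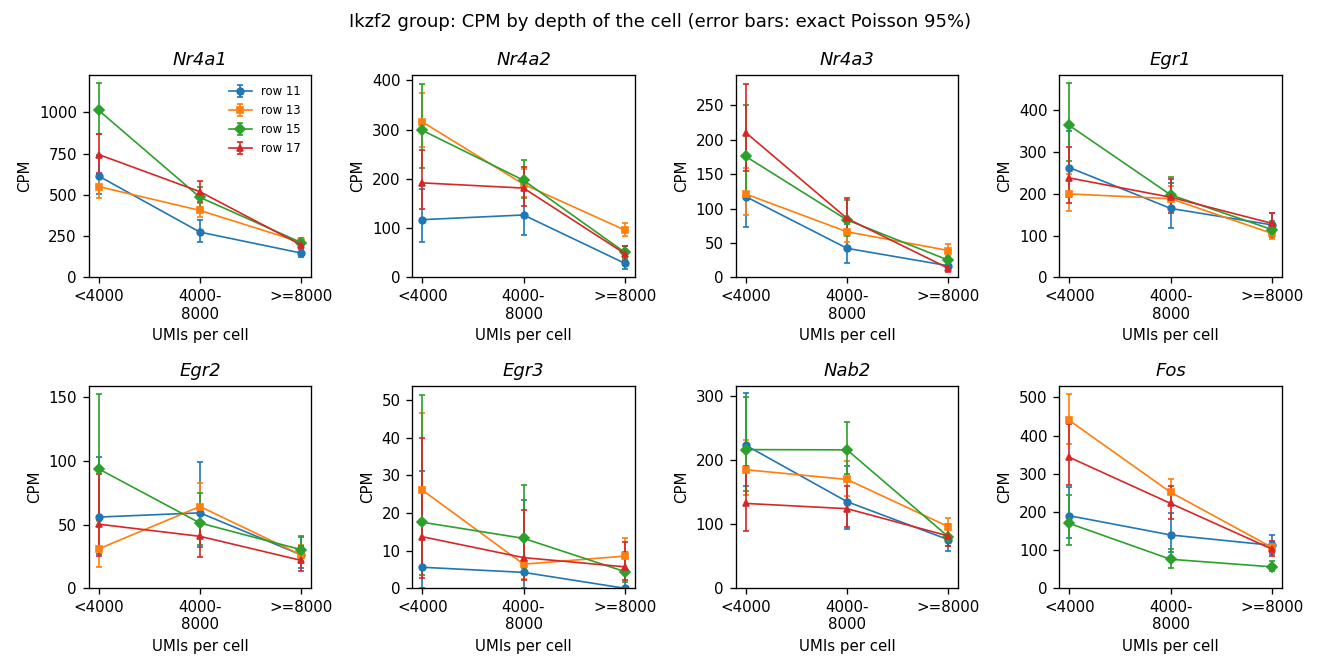
Level of the 7 genes and of Fos (CPM, linear axes from 0) in Ikzf2 group cells of each odd-numbered hashtag, by UMIs per cell, with exact Poisson 95% intervals. In every panel and hashtag the cells under 4000 UMIs are above those of at least 8000 UMIs, and Nr4a1 goes from 551 to 1013 CPM down to 148 to 213 CPM.

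The Ikzf2 groups were divided by Tnfrsf9 and by genes of dividing cells, both chosen after values had been seen, and each was also read within a common range of depth. The share of all genes with the same direction was not computed for these splits, so counts of the 7 genes have no background beside them. Cells with a Tnfrsf9 UMI had more of each of the 7 genes than cells without in 4 of 4 hashtags, for example 246 to 580 against 216 to 245 CPM for Nr4a1, 102 to 237 against 41.1 to 83.1 CPM for Nr4a2 and 53.0 to 80.6 against 17.9 to 23.1 CPM for Egr2. Fosb was lower in them in 4 of 4 hashtags. Among cells of 3000 to 8000 UMIs the Tnfrsf9 cells were still higher in 4 of 4 hashtags for Egr3, in 3 of 4 for Nr4a1, Nr4a2, Nr4a3 and Egr2, in 2 of 4 for Egr1 and in 1 of 4 for Nab2. Median log2 ratios there were 0.76 for Nr4a3, 0.70 for Nr4a2, 0.46 for Egr2 and 0.18 for Nr4a1.

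Cells with a UMI of Mki67, Top2a or Birc5, genes of dividing cells, had less of all 7 genes in 4 of 4 hashtags, with Nr4a1 at 218 to 274 against 304 to 662 CPM. At 3000 to 8000 UMIs Egr2 was lower in 4 of 4 hashtags, at 23.6 to 54.4 against 47.9 to 68.6 CPM, and no other of the 7 genes was. Nr4a1, Nr4a2 and Nr4a3 were then higher in the dividing cells in 3 of 4 hashtags, and Egr1 in 4 of 4, at 165 to 301 against 140 to 203 CPM.

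In the even hashtags, cells with an Izumo1r UMI (folate receptor 4) and no Ccl5 were compared with cells of at least 3 Ccl5 UMIs (a chemokine of effector cells). Nab2 was higher in the first in 4 of 4 hashtags, at 70.5 to 111 against 46.3 to 71.8 CPM. For the other 6 genes the sign was shared by at most 3 of the 4 hashtags. Nr4a1, for example, was at 6.74 to 27.2 CPM in the first and 6.73 to 27.5 CPM in the second.

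Across 24 sums, made of the 5 groups of each odd hashtag and the 4 even hashtags, the levels of the 7 genes went together to different degrees. Pearson's r on the log2 scale ranged over the pairs from 0.13 for Nr4a1 with Egr3 to 0.85 for Nr4a2 with Nr4a3. It was also 0.85 for Nr4a1 with Nr4a2 and for Egr2 with Nab2, 0.84 for Egr1 with Egr2, 0.79 for Nr4a3 with Egr2, 0.76 for Nr4a1 with Egr2, 0.75 for Nr4a1 with Nr4a3 and 0.31 for Nr4a2 with Egr1. These sums share a library and were split by marker genes, so r is given as a description. Of 9136 genes with at least 500 UMIs, those most like Nr4a1 were Zfp821 (0.92), Twsg1 (0.91), Trdv1 (0.91), Cldn10 (0.91) and Pdcd1 (0.90). Nr4a2 was most like Trpm1 (0.95), Itgb8 (0.95), Cldn10 (0.94), Pdcd1 (0.94) and Ikzf2 (0.91). Nr4a3 was most like Tnfrsf9 (0.93), Tnfsf8 (0.93), Ubash3b (0.91), Eno3 (0.90) and Itgb8 (0.89). Trpm1 was at 90.6 to 135 CPM in the Ikzf2 groups and at 0.991 to 1.64 CPM in the even hashtags.

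The genes most like the Egr factors were others. Egr1 was most like Malat1 (0.91), a nuclear noncoding RNA, then Zfp36l1 (0.89), Cd53 (0.88), Zfp513 (0.87) and Mfhas1 (0.87). Egr2 was most like Elk3 (0.87), Tnip1 (0.87), Bach2 (0.87), Zdhhc20 (0.86) and Cytip (0.85), and Egr3 like Zbtb38 (0.87), Pvt1 (0.86), Rab19 (0.85), Ccnd2 (0.83) and Ndfip1 (0.83). Nab2 was most like Calcoco1 (0.94), Ephx1 (0.94), Rcbtb1 (0.92), Dusp5 (0.92), which encodes a phosphatase that acts on ERK, and Midn (0.91).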

How the data were processed

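The authors sequenced 1 pooled library of 5′ transcripts and 1 of hashtag antibodies, and deposited UMI counts per gene or hashtag and barcode, made with Cell Ranger 6.0.0 on mm10 and not normalized. Hashtag UMIs totalled 34886859, of which 25599 lay outside hashtags 11 to 18. Of 12147 barcodes past the filters, 2140 had no single hashtag and were left out. Doublets within a hashtag, and free RNA, were not removed.

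From the counts, CPM and log2 ratios (pseudocount 10 CPM) were computed with Python 3.11.15, numpy 2.4.6, scipy 1.17.1 and pandas 2.3.3. A gene was called higher or lower where hashtags of 2 sets did not overlap or, within hashtags, where it passed 2-fold in each. No test was run, since hashtags of no known group were not treated as replicates. The named genes are the 7 members, 2 lists of 38 and 24 genes, fixed cell type markers and the 5 genes most like each member by Pearson's r. Members and lists were chosen with earlier results of these data known. Egr4, Nab1 and the splits by Tnfrsf9, dividing cells, Izumo1r and depth were chosen after values were seen. The steps were tested on simulated counts.

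Alternatives were other cell filters, hashtag shares, denominators, pseudocounts, Ikzf2 minimums, means over cells, thinning to 1500 UMIs, leaving out each hashtag and, added later, cells of 3000 to 8000 UMIs. Sequences and positions are from RefSeq and GENCODE M21 on GRCm38.p6. For Egr1 and Egr3 no sequence is printed.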

Additional observations from a re-analysis of the deposited data

Results flagged for a closer look

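Barcodes that the filters left out had more of several of the 7 genes than any hashtag. In the 2573 barcodes with over 5% mitochondrial UMIs (median 1242 UMIs), Nr4a2 was at 71.3 CPM, Nr4a3 at 44.1 CPM and Egr1 at 130.3 CPM, each with an exact Poisson 95% interval above the highest hashtag, 47.2, 26.9 and 115 CPM. In the 1459 other barcodes with under 1000 genes (median 1127 UMIs), Nr4a3 was at 48.1 CPM and Egr1 at 181 CPM, again above every hashtag. Fosb was at 219 and 264 CPM in these sets. These barcodes enter no comparison, and depth and mitochondrial content move with the values; their part was not tested.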

How the results depend on the processing

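No paired analysis was possible because no result comes from a test; the ratios of the Ikzf2 group over the rest and Rag1 groups were taken within each hashtag, as descriptions. Without any 1 hashtag, the median log2 ratio over the 7 genes stayed at 0.08 to 0.19 for odd over even hashtags (0.13 with all), at 1.10 to 1.57 for the Ikzf2 over the rest group (1.33), at 2.30 to 2.48 over the Rag1 group (2.33) and at 0.97 to 1.01 for the Ikzf2 group over even hashtags (0.99). The genes called higher numbered 3 to 4, 3 to 5, 6 and 6, with 3, 3, 6 and 6 from all hashtags; those called lower numbered 2, 0, 0 and 0 each time. The count of 5 came without hashtag 11, where 0.853% of all genes were higher, and that of 4 without hashtag 15, where 39% were.

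Depth moved the odd over even comparison most. Its median was 0.48 with at most 4000 genes per cell, 0.59 as a mean over cells and 0.88 in cells of 3000 to 8000 UMIs. Genes called higher went from 3 to 4, 5 and 5 under these settings and to 2, without Nr4a2, at a hashtag share of 95%, and genes called lower from 2 to 1, 1 and 0 under the first 3. Nab2, at -0.48, turned to 0.059 as a mean over cells and to 0.40 in cells of 3000 to 8000 UMIs. The cause was not tested. The Ikzf2 over rest median was 0.78 as a mean over cells. A pseudocount of 1 or 50 CPM gave 2.01 and 0.74 for Ikzf2 over rest, 3.60 and 1.31 over Rag1, and 1.37 and 0.48 over even hashtags; at 50 CPM, 1 and 3 genes were called higher over rest and Rag1, since a larger pseudocount shrinks low values. The Rag1 comparison gave 2.76 at a hashtag share of 95%. The Ikzf2 over even comparison gave 1.37 with at most 4000 genes per cell, 1.42 at 3000 to 8000 UMIs and 0.73 with cells of at least 1 Ikzf2 UMI, where 5 genes, without Nab2, were called higher and 1 lower; over the rest group that minimum left 2 of 3 genes, without Nr4a2. In cells of 3000 to 8000 UMIs the Rag1 comparison rests on 2 hashtags. The median share of Ikzf2 group cells with a UMI of a member, 18.7% at 2000 UMIs, was 14.4% at 1500 UMIs and 34.2% without thinning. Egr3, with 339 UMIs, is limited by depth throughout.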
